A study of Mus musculus with 281 samples.

Results

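Cytosolic ribosomal proteins are the protein subunits of the ribosomes in the cytoplasm. Their genes were chosen by symbol: an Rpl or Rps symbol with a number, or Rplp0, Rplp1, Rplp2 or Rpsa, without symbols marked as pseudogenes. Of 43280 symbols in the deposited table, 85 matched, and 81 whose mean reached 1 TPM in any cell type label were used, 48 of the large and 33 of the small subunit. TPM is a transcript's relative abundance within a cell, scaled by its length and by the cell's total. The 4 symbols left out were Rpl3l, listed at 0 in every cell, Rpl10l, whose highest label mean was 0.271 TPM in CMP cells, and Rps3a2 and Rps3a3, with highest label means of 0.468 and 0.480 TPM. Just inside the limit was Rpl39l, whose mean of 3.53 TPM in Ly6C-GMP cells came from 1 of 45 cells, at 159 TPM, and which was listed at 0 in all other labels.

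The study profiled single bone marrow cells of C57BL/6 mice by SMART-seq2, a full-length method without molecular identifiers, to examine how granulocyte-monocyte progenitors (GMPs) differ from one another. A gate (no lineage markers, c-Kit present, no Sca-1, CD34 present) was divided into CMP (47 cells, CD16/32 low), Ly6C-GMP (45 cells, CD16/32 high without Ly6C) and Ly6C+GMP (95 and 10 cells in title runs A and C, CD16/32 high with Ly6C). Of the 22 cells labelled proneu, 21 carried the Ly6C+GMP gate and 1 carried no gate. The 31 preNeu cells had no lineage markers, carried Gr1, CD11b, c-Kit and CXCR4, and lacked both CD115 and SiglecF. The 31 tpMo cells had no lineage markers, carried CD115, CXCR4 and Ly6C, and lacked c-Kit. No animal, age, sex, allele or treatment is given in the labels used here. Each deposited sample is 1 cell, so each label counts as 1 sample, no test was possible and every SD is the spread over cells.

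A ribosome consists of a small subunit, which reads the mRNA, and a large subunit, which joins amino acids, and nearly every ribosomal protein is present once in each ribosome. In mammals the mRNAs of these proteins begin with a C followed by a run of pyrimidines, the 5′ terminal oligopyrimidine (TOP) motif, through which mTORC1 and Larp1 control their translation. In the marrow, mutations of single ribosomal protein genes such as Rps19, Rpl5 and Rpl11 cause Diamond-Blackfan anaemia, in which red cell precursors fail.

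The TOP motif is shown here because it is the shared feature by which these mRNAs are known. RefSeq promoter windows of GRCm38.p6 were matched for 60 of the 81 genes. At the annotated start, 13 of the 60 (21.7%) began with C and had an unbroken run of at least 5 C or T bases, against 3.01% of all 27025 symbols with a window. A run of at least 10 C or T bases anywhere in the first 50 transcribed bases was present in 30 members (50%) and in 8.81% of all symbols. Each line gives 10 bases before and 20 bases from the annotated start, with the pyrimidine run from the start in capitals. The last pair of genes, Rplp0 and Rps9, has no such run at the annotated base.
Rpl35, chr2:39005112-39005141, minus strand: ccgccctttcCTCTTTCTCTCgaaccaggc
Rps6, chr4:86857348-86857377, minus strand: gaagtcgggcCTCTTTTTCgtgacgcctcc
Rps18, chr17:33955646-33955675, minus strand: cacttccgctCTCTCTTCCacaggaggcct
Rps27, chr3:90213629-90213658, minus strand: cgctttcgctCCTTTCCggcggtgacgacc
Rplp0, chr5:115559457-115559486, plus strand: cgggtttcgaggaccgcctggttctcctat
Rps9, chr7:3704031-3704060, plus strand: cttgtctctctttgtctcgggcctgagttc

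In the window from 250 bases before to 50 bases after the start, the letters CCGGAAG, the core bound by ETS factors, were found on either strand in 26 of 60 members (43.3%) and in 9.93% of all symbols. ATGGCG, part of the YY1 motif, was found in 18 members (30%) and in 10.2% of all symbols. GGGCGG, the GC box, was found in 37 members (61.7%) against 38.2%. CCAAT was found in 33.3% of members and 41.1% of all symbols, TATAAA in 10% against 15.7%, and CACGTG in 10% against 8.09%. No motif contains another, though neighbouring matches may share bases, and a match describes letters only. The 120 bases before the start of Rps6, a phosphorylated protein of the small subunit, and of Rpl41, the shortest ribosomal protein, are shown with CCGGAAG in capitals.
Rps6, chr4:86857368-86857487, minus strand: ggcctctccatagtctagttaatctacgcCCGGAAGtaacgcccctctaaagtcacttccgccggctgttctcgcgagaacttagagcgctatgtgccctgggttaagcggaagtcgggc
Rpl41, chr10:128549169-128549288, minus strand: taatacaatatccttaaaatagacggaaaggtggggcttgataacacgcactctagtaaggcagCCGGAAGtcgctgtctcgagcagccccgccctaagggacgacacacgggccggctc

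Before the values, the libraries and labels were checked. Sample titles fell into a series called run H here and 3 stretches called runs A, B and C, split where the labels change. The labels do not say what the title numbers mean. Runs B and H held all CMP and Ly6C-GMP cells, runs A (95 cells) and C (10 cells) all Ly6C+GMP cells, and run C 21 proneu cells and all preNeu and tpMo cells, so Ly6C-GMP and Ly6C+GMP were never in the same run. Read depth is unknown. The median number of genes at 1 TPM or more was lowest in preNeu cells, at 2373, and lay between 3082 and 4829 in the other labels. The 8 neutrophil markers, among them Ngp, Camp and Ltf, took a median of 31.7% of all TPM in preNeu cells, 0.349% in proneu cells and at most 0.045% elsewhere. The 5 granulocyte-monocyte markers, Mpo, Elane, Prtn3, Ctsg and Ms4a3, took 11.2% in proneu, 7.08% in Ly6C+GMP, 5.34% in Ly6C-GMP and 0.408% in CMP cells. The 7 monocyte markers took 0.468% in tpMo cells and 0.146% in Ly6C+GMP cells. The neutrophil markers were thus highest in preNeu and the monocyte markers in tpMo cells. Levels are relative, so an abundant transcript lowers every other.

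Ribosomal protein transcripts made up the largest share of the transcriptome in CMP and Ly6C-GMP cells and the smallest in preNeu cells. The summed share averaged 8.39% ± 1.13 of TPM in CMP cells (SD over 47 cells; lowest 6.30%, median 7.99%, highest 11.3%). In Ly6C-GMP cells it averaged 8.47% ± 1.014 (n = 45; 6.89%, 8.37% and 10.6%). In Ly6C+GMP cells it averaged 6.14% ± 0.801 (95 and 10 cells; 4.26%, 6.20% and 8.02%). These labels run from the common myeloid gate to the granulocyte-monocyte gates. In proneu cells it averaged 5.39% ± 0.788 (n = 22; 4.39%, 5.24% and 7.37%). In tpMo cells, the CD115-positive label, it averaged 4.24% ± 1.08 (n = 31; 2.37%, 4.03% and 6.34%). In preNeu cells it averaged 1.16% ± 0.415 (n = 31; 0.535%, 1.12% and 2.60%). The highest preNeu cell was above the lowest tpMo cells only, and preNeu cells overlapped with no other label.

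In the order of mean shares, Ly6C-GMP and CMP were neighbours that differed by far less than their spread. The Ly6C-GMP mean was 1.38 times the Ly6C+GMP mean, with 16 of 45 Ly6C-GMP cells and 17 Ly6C+GMP cells inside the other's range. All 22 proneu cells lay within the range of Ly6C+GMP cells. The proneu and tpMo means, at a ratio of 1.27, had 20 of 22 and 11 of 31 cells inside the other's range. The tpMo mean was 3.67 times the preNeu mean, with 2 tpMo cells and 1 preNeu cell overlapping. The proneu mean was 4.67 times the preNeu mean, with no overlap. Among labels that share a run the order held, though CMP and Ly6C-GMP were nearly equal in run B. CMP averaged 8.21% in run B and 8.73% in run H, and Ly6C-GMP 8.21% and 8.97%. In run C, Ly6C+GMP averaged 5.95%, proneu 5.31%, tpMo 4.24% and preNeu 1.16%. Ly6C+GMP averaged 6.16% in run A. The step from Ly6C-GMP to Ly6C+GMP could not be checked within a run, because no run holds both. The 1 proneu cell of run B was at 7.21%.

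**Figure D1:**
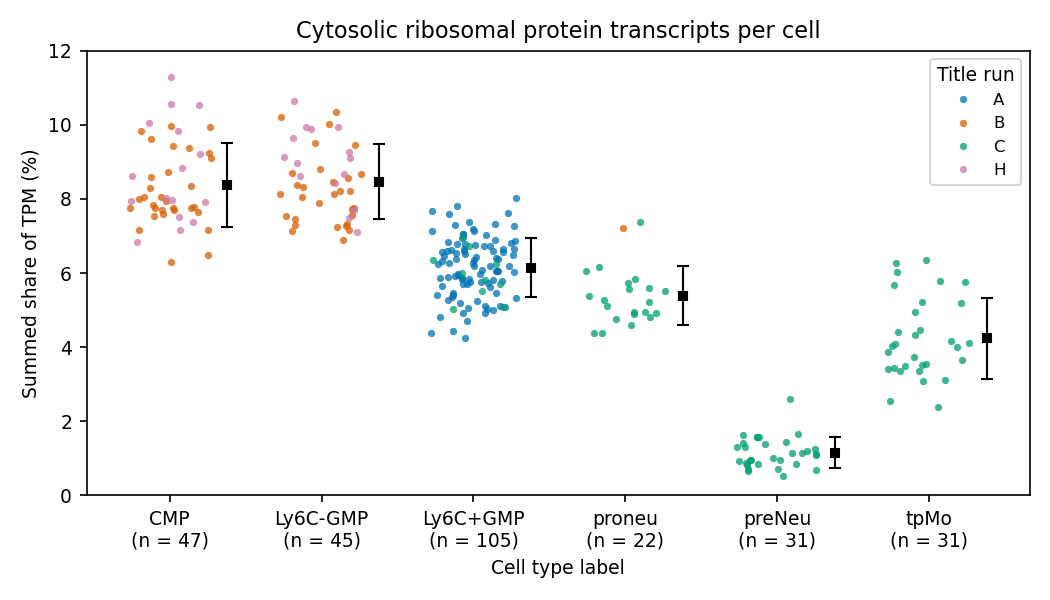
Summed share of ribosomal protein transcripts in percent of a cell's TPM, by cell type label. Each point is 1 cell, coloured by title run; squares and bars are the mean and SD over cells. The preNeu cells sit between 0.535% and 2.60%, below every cell of the other labels but 2 tpMo cells.

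The preNeu cells also held the most concentrated transcriptomes: their 20 most abundant genes took a median of 47.1% of TPM, against 14.2 to 22.4% in the other labels. When the mitochondrially encoded genes and the 20 most abundant other genes were left out of the total, the preNeu share was 2.04% and the proneu share 6.88%, at a ratio of 3.38 in place of 4.67. On that total the share was 5.14% in tpMo, 7.42% in Ly6C+GMP, 9.47% in CMP and 9.99% in Ly6C-GMP cells, and the order of the 6 labels was the same. The share summed over pseudogene symbols, which take part of the same reads, moved alike, from 0.0925% in preNeu, 0.429% in tpMo and 0.554% in proneu cells to 0.596% in Ly6C+GMP, 0.840% in CMP and 0.946% in Ly6C-GMP cells.

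Other parts of the translation machinery were lower in preNeu cells too, but by smaller ratios. The 77 mitochondrial ribosomal proteins, which serve the ribosomes inside mitochondria, took 0.709% of TPM in proneu and 0.289% in preNeu cells, a ratio of 0.407, against 0.214 for the cytosolic proteins. For the 54 Eif symbols, which cover translation initiation factors, the ratio was 0.375, from 1.35% to 0.505%. From Ly6C-GMP to Ly6C+GMP the ratio was 0.726 for the cytosolic proteins, 0.888 for the mitochondrial ones and 1.03 for the initiation factors. From Ly6C+GMP to tpMo the 3 sets were closer, at 0.690, 0.741 and 0.733. These ratios have no test of their differences.

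Averaged over the 6 labels, a few mRNAs held a large part of the pool. Rplp0, the stalk protein P0 of the large subunit (chr5:115559467-115563727, plus strand of GRCm38), had the highest mean over the 6 labels, 5836 TPM, and took 10.4% of the summed level. Rpl4 followed with 4339 TPM and Rps2 with 3585 TPM. Among those that came after them were Rpl3, Rps4x, Rpl13, Rpl6, Rps6 and Rps3a1, and the highest 10 together held 47.7%. The lowest were Rpl39l at 0.588, Rps4l at 13.7, Rpl12 at 18.2, Rpl37 at 21, Rps12 at 39.9, Rpl39 at 41.4, Rps21 at 46.5, Rpl27 at 69.7, Rpl22 at 78.4 and Rps20 at 83.4 TPM. The members' levels thus spanned from 0.588 to 5836 TPM. Shorter mRNAs had lower listed levels: the median was 212 TPM for the 14 members under 500 bases, 402 TPM for the 36 from 500 to under 800 bases and 611 TPM for the 30 from 800 bases. Spearman's rho between length and level over the 80 members with a length was 0.21, a description across genes.

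**Figure D2:**
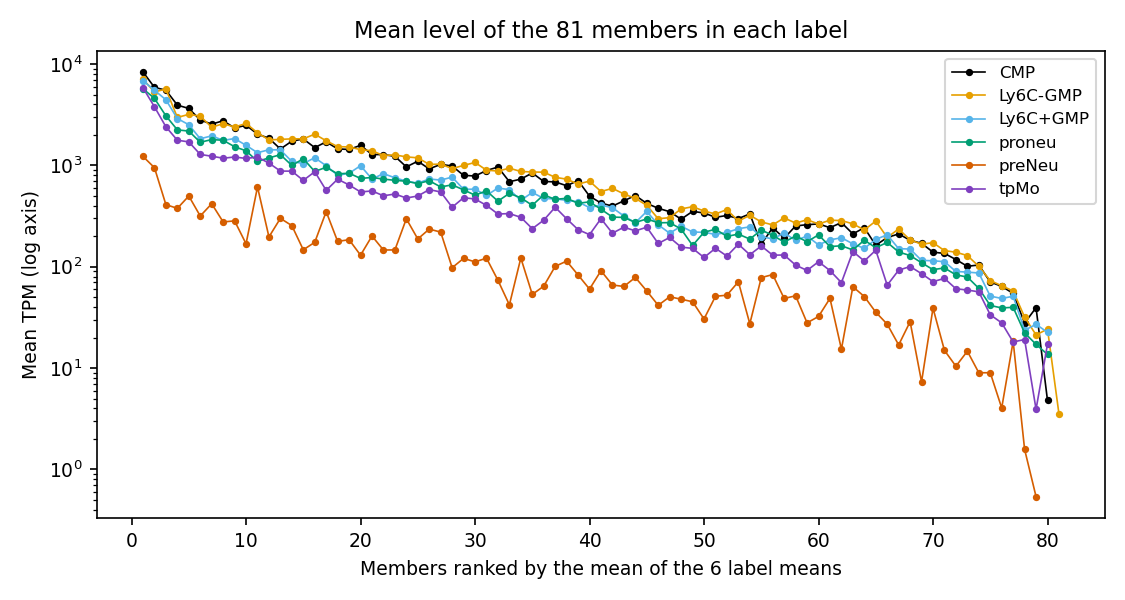
Mean TPM (log axis) of the 81 members in each label, ordered by the mean of the 6 label means; members at 0 in a label are not drawn. The lines run in parallel for 5 labels, the preNeu line lies lowest over nearly all ranks, and Rplp0 is first at 5836 TPM.

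Some levels are uncertain because near-identical processed pseudogenes share the reads, which RSEM divides by estimate. Pseudogene symbols of Rpl10 summed to 1875 TPM against 296 TPM for Rpl10 itself. Those of Rps23 summed to 605 TPM against 141 TPM, those of Rpl27 to 157 TPM against 69.7 TPM, and those of Rps12 to 59.4 TPM against 39.9 TPM. Those of Rpl28 summed to 111.5 TPM against 129 TPM. Those of Rps6 summed to 1007 TPM and those of Rpl15 to 989 TPM. Rps9 had no pseudogene symbol, those of Rplp1 were at 0, and those of Rpl5 summed to 0.209 TPM. Rps4l is annotated in GENCODE M21 as a transcribed processed pseudogene.

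The next question was which single members set the labels apart. Values here are the first label minus the second in mean log2(TPM + 1). Adding 1 TPM makes differences of genes at very low levels look smaller. Cells at 0 weigh heavily on this scale. A gene missing from many cells of a label can therefore differ by more than its mean TPM does. A member was called higher or lower when it differed by at least 1 log2 unit. In the table as a whole, 39.8% of 10991 genes were lower in preNeu than in proneu cells and 3.58% higher. Of the 80 members measured there, 78 were lower and 0 higher, with a median difference of -3.69 against -0.68 over all genes. As a log2 ratio of mean TPM the median was -2.26, and with median-ratio scaling it was -2.51, with 74 members lower, against -0.43 over all genes. Both labels were in run C, apart from 1 proneu cell, and within run C 79 were lower with the same median.

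**Figure D3:**
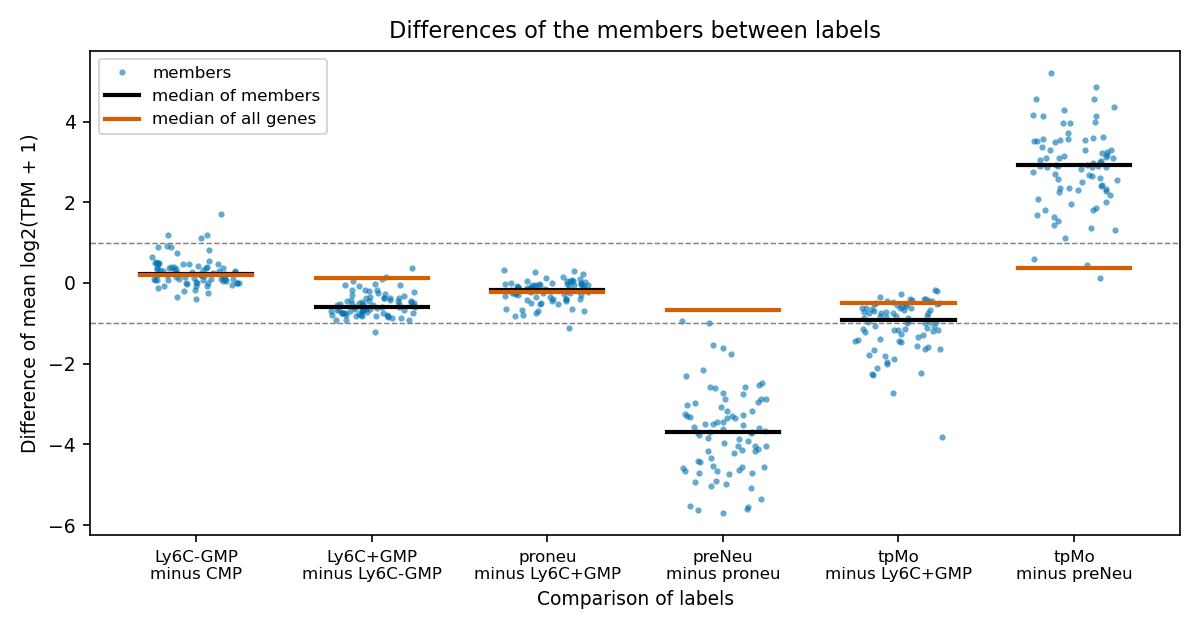
Difference of mean log2(TPM + 1) for each member (points) in the 6 comparisons, with the median of the members (black) and of all genes (orange); dashed lines mark 1 log2 unit. In preNeu minus proneu the members' median of -3.69 lies below the all-gene median of -0.68, and in Ly6C+GMP minus Ly6C-GMP it is -0.58 against 0.12.

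The lowest differences belonged to both subunits. Rplp1, an acidic stalk protein of the large subunit (chr9:61913284-61914542, minus strand), averaged 530 ± 228 TPM in proneu cells (n = 22; lowest 183, median 469, highest 1220). In preNeu cells it averaged 42 ± 55.6 TPM (n = 31; 0, 16.3 and 182). The highest preNeu cell was just under the lowest proneu cell, the difference was -5.70, and 17 of 31 preNeu cells had 1 TPM or more (54.8%, exact 95% interval 36 to 72.7%, counting error only). Rpsa, the small subunit protein also called the laminin receptor (chr9:120127689-120132369, plus strand), averaged 642 ± 228 TPM against 97.7 ± 140 TPM, a difference of -5.60. In preNeu cells Rpsa had a median of 2.39 and a highest value of 466 TPM, above the lowest proneu cell at 259 TPM.

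Rps9 stood at the other end. Rps9, a small subunit protein involved in decoding accuracy (chr7:3703993-3706897, plus strand), averaged 1095 ± 436 TPM in proneu cells (lowest 136, median 1101, highest 1900). In preNeu cells it averaged 612 ± 351 TPM (67.8, 505 and 1488). Rps9 was above 1 TPM in every cell of all 6 labels, its groups overlapped, and its difference of -0.94 was the smallest drop among members of at least 50 TPM. Rps29 and Rps27a, both small subunit proteins, followed with -1.62 and -2.16, and Rps27a is made as a fusion with ubiquitin. Rps4l, at low levels, was the other member within 1 log2 unit, at -0.98.

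Rplp0, the top member, averaged 5699 ± 1600 TPM in proneu cells (3523, 5914 and 9937) and 1225 ± 936 TPM in preNeu cells (6.60, 1057 and 4249). The groups overlapped in their tails. In CMP it averaged 8349 ± 1744, in Ly6C-GMP 7071 ± 1701, in Ly6C+GMP 6849 ± 1307 and in tpMo cells 5821 ± 1658 TPM, so that the proneu and tpMo levels differed by far less than their spread.

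The monocyte-side comparison, tpMo with Ly6C+GMP, showed a lower and less uniform pool. Of 80 members, 36 were lower and 0 higher, where 32.9% of all 12057 genes were lower and 3.19% higher. The members' median difference was -0.91 against -0.50 over all genes. The count depends on the scale. With ratios of mean TPM, 7 members (8.75%) were lower against 25.7% of all genes, so members were past 1 log2 unit less often than all genes, with medians of -0.56 and -0.12. With a pseudocount of 10, 21 members (26.2%) were lower against 13.1% of all genes. With a pseudocount of 0.1, 48.8% of members and 47.2% of all genes were lower, with medians of -0.97 and -0.89. With median-ratio scaling, 31.2% of members and 29.5% of all genes were lower, with medians of -0.71 and -0.45. Under both settings the share of members lower was thus near that of all genes. Within run C, which holds 10 Ly6C+GMP cells, 36 members (45%) were again lower, against 36.9% of all genes.

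Rpl5, a large subunit protein that carries 5S rRNA and binds Mdm2 (chr5:107900502-107909005, plus strand), had the lowest difference, -3.81 (-3.24 within run C). In Ly6C+GMP cells it averaged 206 ± 196 TPM (lowest 0, median 163, highest 1072) and was detected in 98.1% of cells (exact 95% interval 93.3 to 99.8%). In tpMo cells it averaged 65.7 ± 171 TPM (0, 5.02 and 800) and was detected in 20 of 31 cells (64.5%, 45.4 to 80.8%). The tpMo mean was 41.2 TPM without its highest cell, and the ranges overlapped. In preNeu cells Rpl5 was detected in 9 of 31 cells, with a median of 0 and a mean of 27.1 TPM, 17 TPM without the highest cell. In CMP cells it averaged 194 ± 302 TPM with a median of 23.2, so most CMP cells lay well under their mean. Rpl11, its partner in the 5S particle, was at 307 TPM in tpMo and at 452 TPM in Ly6C+GMP cells.

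Rpl27 and Rpl28, also of the large subunit, came next with -2.72 and -2.29. Rpl27 averaged 56.5 TPM in tpMo cells, 34.8 TPM without the highest cell, and its reads are shared with pseudogenes. Rpl28 averaged 100.4 TPM, or 69.3 TPM without the highest cell, and its reads are shared with pseudogenes too. Among the members least lower were Rps9 at -0.21 and Rplp0 at -0.27. Rps9 averaged 1333 ± 366 TPM in Ly6C+GMP cells (672, 1293 and 2444) and 1207 ± 478 TPM in tpMo cells (467, 1149 and 2202), a difference smaller than the spread.

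Between tpMo and preNeu cells, which share run C, 77 of 80 members were higher in tpMo cells and 0 lower, where 26.3% of 10826 genes were higher and 4.53% lower. The median was 2.92 against 0.36 over all genes. With median-ratio scaling, 64 members were higher, 0 were lower and their median was 1.76. Of all genes, 1991 were then higher and 886 lower, in place of 2848 and 490. Among the highest differences were Rplp1 at 4.86 and Rpl10, whose reads are shared with pseudogenes, at 4.56. Rplp1 averaged 334 ± 191 TPM in tpMo cells (lowest 57.2, median 298, highest 718), and its ranges in the 2 labels overlapped. Among members of at least 50 TPM, Rps9 at 1.12, Rps27a at 1.32 and Rpl5 at 1.36 were the lowest. The members not past 1 log2 unit were Rps12 at 0.12, Rpl12 at 0.44 and Rps4l at 0.59, named after their values were seen. This comparison shares its preNeu and tpMo cells with those above, so its values are not separate evidence.

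Among the progenitor labels the shifts were small and spread over the members. In Ly6C+GMP against Ly6C-GMP cells, 77 of 81 members had a difference below 0 and the median was -0.58, while the median of all genes was 0.12. Of the members, 0 passed 1 log2 unit upwards and 1 downwards, where 9.87% of 12399 genes passed upwards and 1.35% downwards. The one below was Rps27, a zinc finger protein of the small subunit (chr3:90212522-90213651, minus strand), at -1.22. It averaged 305 ± 274 TPM in Ly6C-GMP cells (0, 280 and 1313) and 214 ± 223 TPM in Ly6C+GMP cells (0, 173 and 804), and the groups overlapped widely. Rps14 followed at -0.91, and Rpl5 at 0.36, Rps12 at 0.11 and Rpl4 at 0.05 were highest. Label and run cannot be told apart in this comparison.

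In Ly6C-GMP against CMP cells, 4 of 81 members were higher and 0 lower, where 15.6% of 12582 genes were higher and 1.29% lower. The median was 0.22 against 0.19 over all genes, with 65 of 81 members above 0. With median-ratio scaling, which moves all genes of a cell together, the members' median was -0.05. Rps27l, the paralog of Rps27 and a p53 target (chr9:66946086-66949516, plus strand), was highest at 1.72. It averaged 163 ± 158 TPM in CMP cells (0, 121 and 743; 41 of 47 cells detected) and 282 ± 140 TPM in Ly6C-GMP cells (0, 271 and 705; 44 of 45 cells), with overlapping ranges. The difference was 2.08 within run B and 1.00 within run H. Rpl36al at 1.19 (1.68 and 0.24 by run), Rps4l at 1.18 and Rpl29 at 1.12 (1.498 and 0.38) were less even between runs. Lowest were Rpl3 at -0.39, Rps28 at -0.36 and Rplp0 at -0.26.

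In proneu against Ly6C+GMP cells, 0 of 80 members were higher and 1 lower, where 2.20% of 12026 genes were higher and 15.9% lower. The median of -0.18 was close to the -0.23 of all genes. The 1 member below was Rps21, a small subunit protein, at -1.12, which was -0.45 within run C, where no member passed 1 log2 unit. Rpl10 at -0.82 and Rpl14 at -0.80 followed, and Rpl23a at 0.33, Rpl35 at 0.30 and Rps27 at 0.27 were highest. Rps19, the gene most often mutated in Diamond-Blackfan anaemia, had nearly equal means, 837 TPM in proneu against 835 TPM in Ly6C+GMP cells.

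To separate make-up from amount, each member was expressed as a percent of the summed ribosomal protein TPM of its cell. Of the 77 members with at least 50 TPM in a label, 19 differed by 1 log2 unit or more between their highest and lowest label means, and in 18 of them preNeu was the highest (8) or lowest (10) label. Without preNeu cells there were 4: Rpl5, Rpl36al, Rpl30 and Rps12. Rps9 took 5.68% ± 3.46 of the pool in preNeu cells (median 4.77%) and 2.02% ± 0.700 in proneu cells (median 2.12%). Rps2, a small subunit protein at the mRNA entry, took 3.19% ± 3.57 in preNeu cells (median 2.31%) and 7.20% ± 1.84 in Ly6C+GMP cells. Rplp1 took 0.342% in preNeu cells against 0.992% in proneu cells. For other members the preNeu mean rested on few cells: Rpl41 averaged 2.27% ± 3.13, yet its median of 1.2% was under the proneu median of 1.30%. Rpl36al averaged 0.783% with a median of 0.256%, where CMP cells averaged 0.202%. By medians over cells, 37 members differed in place of 19.

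**Figure D4:**
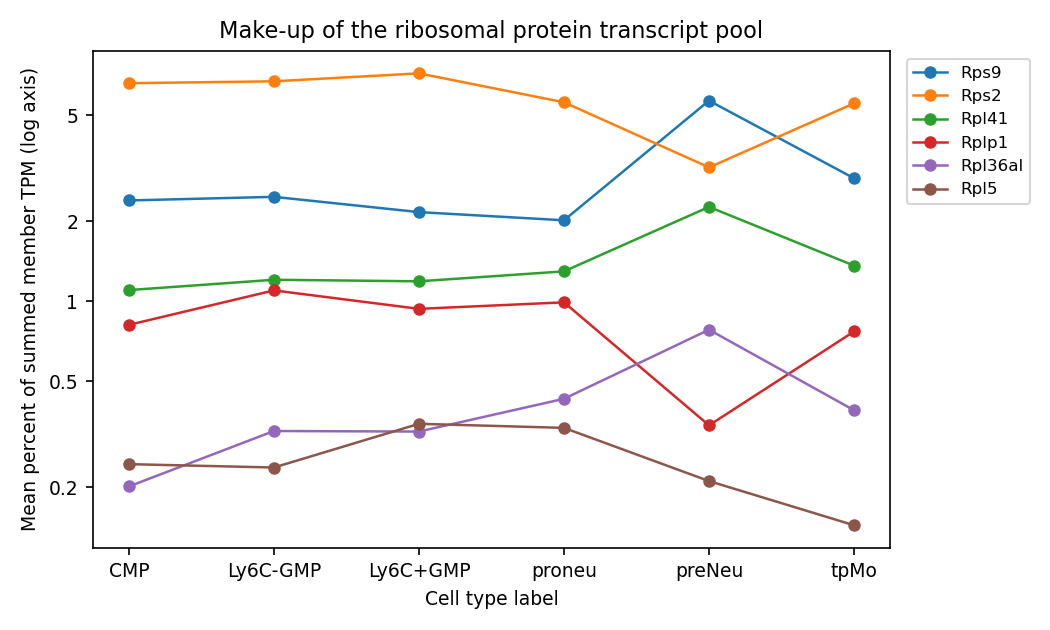
Mean percent of the summed ribosomal protein TPM (log axis) taken by 6 members in each label; lines join points of 1 gene only to guide the eye. In preNeu cells Rps9 is at 5.68% and Rps2 at 3.19%, whereas in proneu cells they are at 2.02% and 5.60%.

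The balance of the subunits differed modestly between labels. The ratio of summed large to small subunit TPM averaged 1.40 ± 0.117 in Ly6C-GMP, 1.46 ± 0.149 in CMP, 1.54 ± 0.176 in proneu and 1.57 ± 0.164 in Ly6C+GMP cells. It averaged 1.57 ± 0.440 in preNeu and 1.63 ± 0.256 in tpMo cells. The Ly6C-GMP mean lay below the proneu, Ly6C+GMP, preNeu and tpMo means by more than its own SD, with overlapping ranges. The spread was widest in preNeu cells.

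Paralogs made up different parts of their pairs. Rpl36al, the paralog of Rpl36a, held 71.9% of the summed pair mean in preNeu cells, 56.5% in tpMo, 51.2% in proneu, 47.5% in Ly6C+GMP, 43.8% in Ly6C-GMP and 33% in CMP cells. The proneu mean of Rpl36al, 230 TPM, was 179 TPM without its highest cell. In preNeu cells Rpl36al was detected in 19 and Rpl36a in 13 of 31 cells, at means of 78 and 30.5 TPM. The preNeu part of this pair thus rests on few cells. Rps27l held 31.8% of its pair with Rps27 in CMP cells, 36.1% in proneu, 41.3% in preNeu, 42.8% in tpMo, 46.5% in Ly6C+GMP and 48% in Ly6C-GMP cells. The part of Rps27l varied with the run. For Ly6C+GMP it was 47.55% in run A but 36.55% in run C (10 cells), near the 35.71% of proneu cells there. The gap between Ly6C+GMP and proneu was thus nearly absent within their shared run. For Ly6C-GMP it was 51.36% in run B and 43.22% in run H, against 30.71% and 33.43% for CMP. Rpl22l1, the paralog of Rpl22, held 61.6 to 70.6% of its pair in every label, so the paralog was the more abundant of this pair throughout. Reads shared between paralogs are divided by estimate.

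From cell to cell, ribosomal protein mRNAs were steady in the progenitor labels. For members of at least 100 TPM the median SD of log2(TPM + 1) was 1.15 in tpMo, 0.75 in CMP, 0.64 in proneu, 0.59 in Ly6C-GMP and 0.53 in Ly6C+GMP cells. Other genes of at least 100 TPM had medians of 3.71, 3.74, 3.06, 3.06 and 2.48 in the same order. They were not matched to the members for level or detection. In these labels they were found in a median of 66 to 92.4% of cells, against 100% for the members. The part of level and detection in the gap was not tested. In preNeu cells the members' median SD was 2.93 against 3.74 for other genes. Rps27 had the highest SD in every label but preNeu, where Rpl3 did, and Rps9 had the lowest there at 0.96. The median number of members detected per cell was 77 or 78 in CMP, both GMP labels and proneu, 73 in tpMo and 51 in preNeu cells, and only 4 members were found in every preNeu cell against 67 in every proneu cell.

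The share went with the number of detected genes in the labels with the fewest genes. Spearman's rho over cells was 0.63 in preNeu (n = 31), 0.68 in tpMo (n = 31), 0.09 in Ly6C+GMP, -0.26 in proneu (n = 22), -0.22 in Ly6C-GMP (n = 45) and -0.42 in CMP cells (n = 47). Cells share a fixed TPM total and an unknown depth, so these are descriptions. In preNeu cells rho was -0.65 with the summed neutrophil markers and -0.69 with the TPM of the 20 most abundant genes. With the neutrophil markers it was -0.45 in proneu and -0.41 in Ly6C+GMP cells. The part of depth and of abundant granule transcripts in the low preNeu share was not tested beyond the values above.

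**Figure D5:**
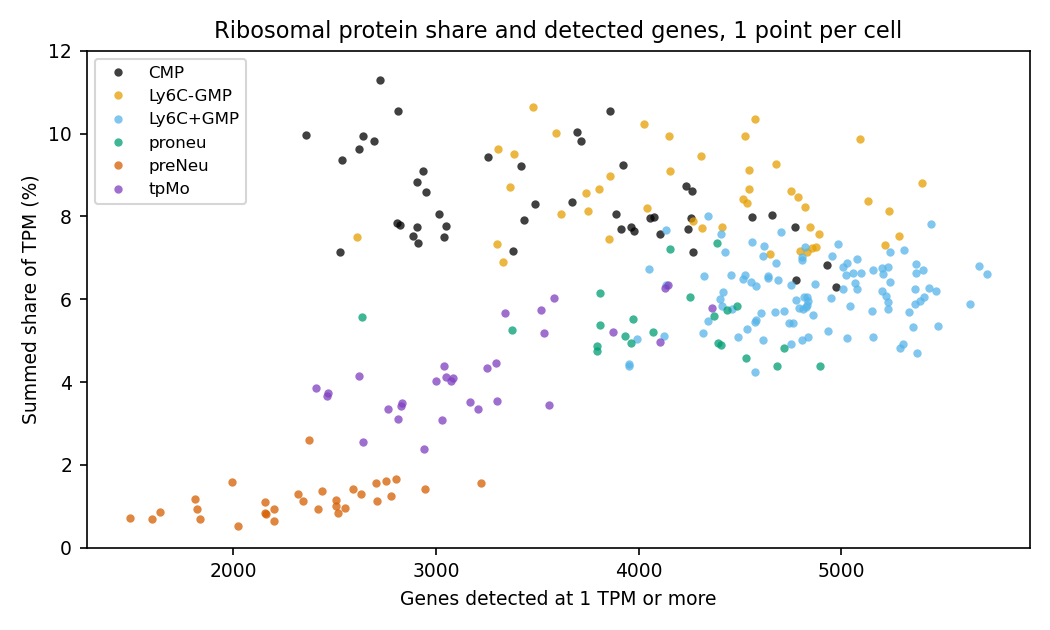
Summed ribosomal protein share (percent of TPM) against the number of genes at 1 TPM or more, 1 point per cell, coloured by label. The preNeu and tpMo cells lie at the left, with shares that go up with detected genes (rho 0.63 and 0.68), and CMP cells with as few genes as tpMo cells have higher shares.

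Ribosomal proteins outside the symbol rule gave a mixed picture. Of the 5 measured, among them Fau, Gnb2l1, Rpl22l1 and Rpl7l1, 4 were lower in preNeu than in proneu cells, where 39.8% of all genes were lower. Gnb2l1, the scaffold protein Rack1, averaged 1210 ± 386 TPM in proneu and 148 ± 210 TPM in preNeu cells, a difference of -5.94. Fau, made as a fusion of a ubiquitin-like protein with S30, averaged 193 ± 101.9 and 139 ± 98.7 TPM, a difference of -0.73. Fau thus resembled Rps9 in a small difference, smaller than the spread over cells.

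Other transcripts with a TOP motif went the same way as the ribosomal proteins. Of the 18 on the list, 17 were lower in preNeu than in proneu cells and 1 higher, with a median of -4.98. Of all genes, 39.8% were lower there and 3.58% higher. In tpMo against Ly6C+GMP cells 15 were lower and 1 was higher, with a median of -1.65, where 32.9% of all genes were lower and 3.19% higher. The 1 on the upper side there was Vim, the intermediate filament vimentin, at 2.55. Eef1a1, the elongation factor that delivers tRNAs, had means of 6959 TPM in proneu, 1313 TPM in preNeu, 6664 TPM in tpMo and 8976 TPM in Ly6C+GMP cells. Npm1, a nucleolar chaperone, averaged 1561, 116, 846 and 2390 TPM in the same labels. In Ly6C+GMP against Ly6C-GMP cells this list had 1 higher and 0 lower with a median of -0.03, against -0.58 for the ribosomal proteins. Of all genes, 9.87% were higher there and 1.35% lower.

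By mean log2(TPM + 1), ribosome production genes were lower by more on the monocyte side than the ribosomal proteins themselves. Cells at 0 weigh heavily on that scale, and the lists were not matched for level or detection. Of all genes, 32.9% were lower in tpMo than in Ly6C+GMP cells and 39.8% in preNeu than in proneu cells. All 13 of the RNA polymerase I and Myc list were lower in tpMo than in Ly6C+GMP cells, with a median of -3.26 beside -0.91 for the ribosomal proteins, and all 13 in preNeu than in proneu cells, with a median of -3.0. Myc, a driver of ribosome production, was highest in CMP cells, at 788 TPM, and lowest in preNeu cells, at 0.230 TPM. It was at 49.5 TPM in tpMo, 304 TPM in proneu, 315 TPM in Ly6C+GMP and, higher still, 471 TPM in Ly6C-GMP cells. All 9 measured chaperones and import factors of ribosomal proteins were lower in tpMo cells (median -2.09) and 6 of 9 in preNeu cells (median -2.35). In the same order, 64 of 77 (median -2.22) and 75 of 77 mitochondrial ribosomal proteins (median -2.82) were lower. By summed share, the tpMo to Ly6C+GMP ratio was 0.741 for the mitochondrial and 0.690 for the cytosolic proteins. Which of these sets was lower by more in tpMo cells thus depends on the measure. Of the mTORC1 list, 2 of 11 were lower in tpMo cells (median -0.75) and 5 of 11 in preNeu cells (median -0.86). The former was under the share of all genes and the latter near it. Of 8 genes of ribosome quality control, 5 were lower in tpMo cells (median -1.25) and 4 in preNeu cells (median -0.84), the latter not far from the share of all genes.

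In proneu against Ly6C+GMP cells, 5 of 13 RNA polymerase I and Myc genes were lower (median -0.80). So were 6 of 9 chaperones (median -1.49) and 30 of 77 mitochondrial ribosomal proteins (median -0.78), beside 1 of 80 cytosolic ones. In each of these sets 0 were higher. Of all genes, 15.9% were lower there and 2.20% higher. By summed share, the proneu to Ly6C+GMP ratio was 0.904 for the mitochondrial and 0.878 for the cytosolic proteins. Which of the 2 was lower by more thus depends on the measure. In Ly6C-GMP against CMP cells, 48 of 77 mitochondrial ribosomal proteins were higher and 0 lower, where 15.6% of all genes were higher and 1.29% lower. Their median was 1.24 beside 0.22 for the cytosolic ones and 0.19 over all genes. By summed share the mitochondrial proteins differed less, at 0.755% of TPM in CMP and 0.883% in Ly6C-GMP cells, a ratio of 1.17. Cells at 0 weigh heavily on the log scale. No test compares these lists.

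Members with a TOP run at the annotated start did not stand far apart from the others. The split follows the annotated base only, and mRNAs of the other members may also begin with a TOP motif. It therefore cannot compare mRNAs with and without the motif. In preNeu minus proneu, the 13 with the run had a median of -3.71 and the other matched members -3.50. In tpMo minus Ly6C+GMP the medians were -1.05 and -0.85, and for members with and without CCGGAAG they were -0.74 and -1.09.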

How the data were processed

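Single cells were profiled by SMART-seq2 with paired reads, per the labels' protocols. The authors deposited TPM values for single cells, made with RSEM 1.2.19 on GRCm38 per the submitters' processing notes. The aligner and annotation were not given in the sources used here. Read depth cannot be read from TPM, and the method has no molecular identifiers. All value columns matched a sample title. The share was a cell's summed member TPM in percent of its total. Differences were of mean log2(TPM + 1) over genes whose mean reached 1 TPM in either label, computed on the whole table with Python 3.11.15, pandas 2.3.3 and numpy 2.4.6 and checked on simulated data. Detection was at 1 TPM, with exact Clopper-Pearson 95% intervals. Gene positions and lengths are from GENCODE M21 and promoters from RefSeq, both on GRCm38. No doublet caller was run, and every cell was kept.

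Members and gene lists were chosen with earlier results of these data known. Named genes were the 10 highest and 10 lowest members, the 3 extremes each way per comparison with at least 50 TPM, members with paralogs or known roles, and those that stood out in the pool. The spread was set beside all other genes of at least 100 TPM, not beside genes nearest in mean as first planned. Alternatives covered pseudocounts, filters, scaling, detection, runs and single cells left out. Some genes are not reported here.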

Additional observations from a re-analysis of the deposited data

How the results depend on the processing

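Of 219 values recomputed under alternatives, 200 kept within their limits, 19 moved further and 0 reversed a called direction. With mt- genes and the 20 most abundant others left out of the total, the mean share was 2.04% in preNeu, 6.88% in proneu, 7.42% in Ly6C+GMP and 9.99% in Ly6C-GMP cells. With a pseudocount of 10, the members past 1 log2 unit were 1 higher in Ly6C-GMP than CMP, 0 lower in Ly6C+GMP than Ly6C-GMP, 0 lower in proneu than Ly6C+GMP and 21 lower in tpMo than Ly6C+GMP. Of all genes, 4.25%, 0.234%, 3.67% and 13.1% passed in the same order. With a pseudocount of 0.1, 3 members (3.75%) were lower in proneu, against 28.8% of all genes. With ratios of mean TPM the same member counts were 1, 0, 0 and 7, against 13.2%, 14%, 18.9% and 25.7% of all genes. The 7 lower in tpMo than Ly6C+GMP were 8.75% of members. With these ratios the preNeu against proneu median was -2.26. With median-ratio scaling over 477 genes, 2 members were higher in Ly6C-GMP and 0 lower in proneu, against 11.6% and 13.2% of all genes. In preNeu minus proneu the members' median was then -2.51 in place of -3.69. That of all genes was -0.43 in place of -0.68. In run C alone, 0 members were lower in proneu, against 21.2% of all genes. With Ly6C+GMP cells of run C only, chosen after seeing the data, 2 members were lower than in Ly6C-GMP, against 6.64% of all genes. By medians over cells, 37 members differed in the pool. Under all these settings, 74 to 79 members were lower in preNeu than in proneu cells and 64 to 77 higher in tpMo than in preNeu cells. Of all genes, 10.1% (no filter on low values) to 52.6% (pseudocount of 0.1) were lower in preNeu than in proneu cells. Higher in tpMo than in preNeu cells were 6.58% (no filter) to 42.6% (ratios of mean TPM) of all genes. No paired analysis was possible because each sample is 1 cell and the replicate numbers only follow accession order. Each label is 1 sample of unknown animals, depth is unknown, and absolute mRNA amounts cannot be read from TPM.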
